A study of Homo sapiens with 76 samples.

Results

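The mitochondrial ribosomal protein (MRP) genes are the rows of the count table whose symbol begins with MRPL or MRPS followed by a digit. This choice by symbol found 80 of 17513 gene rows. Of these, 48 encode proteins of the large subunit of the mitochondrial ribosome, 25 encode proteins of the small subunit, 6 are pseudogenes, and 1, MRPS36, encodes a subunit of the alpha-ketoglutarate dehydrogenase complex despite its name. MRPS18A and MRPS30 carry small-subunit names but sit in the large subunit and were counted there. The rows were measured in 76 single HEK293 cells, a transformed human embryonic kidney line grown in DMEM with glutamine and fetal calf serum, with no treatment and no second group. Cells were captured on a microfluidic chip and lysed with spike-in RNA, and polyadenylated RNA was reverse transcribed from an oligo-dT primer. A unique molecular identifier (UMI), a random tag that lets copies of a molecule be counted once, was attached to the 5′ end of each cDNA by template switching. The labels name no separate cultures, so the cells were treated as units within 1 sample, and values below describe the spread among them with no test.

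Mitochondrial ribosomes translate the few proteins encoded by mitochondrial DNA, all of them subunits of the oxidative phosphorylation complexes. Their rRNAs are transcribed from mitochondrial DNA, while all their proteins are encoded in the nucleus, made on cytosolic ribosomes and imported. Some of these proteins have relatives in bacterial ribosomes and others are found only in mitochondrial ribosomes. Nuclear genes for mitochondrial proteins are known targets of the transcription factors NRF-1, GABP (of the ETS family) and YY1.

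What the MRP genes shared in sequence was read first from RefSeq windows on GRCh38.p14, each running from 250 bases before to 50 bases after a listed start. Of the 73 ribosomal members, 65 had at least 1 window, 81 windows in all. Both strands were searched for AAGATGGC (YY1 core), CCGGAAG (ETS core) and GCATGCGC (NRF-1 core), none of which contains another. The YY1 core was in 23 of the 81 windows (28.4%), against 2.89% of all 35116 windows in the table and 7.31% of the 2969 windows of genes averaging 1 UMI per cell or more in these data. By gene, 21 of the 65 members held it in at least 1 window, a count for which no background by gene was computed. In windows of cytosolic ribosomal protein genes the share was 7.59%, and in windows of nuclear oxidative phosphorylation genes it was 12.96%.

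The YY1 core sat at a similar place in most members that held it. In 16 of the 23 windows it lay after the listed start on the forward strand (69.6%), with its first base between positions 7 and 36, where 1 is the first base after the start. Over all windows with the core, 43.3% had it there. In 13 of these 16 sites the letters ATG inside the core coincided with a start codon annotated in GENCODE release 29, so that the match overlapped the beginning of the coding sequence. Over all windows this held for 278 of 439 such sites (63.3%). The stretches below were cut around the core, so the core lines up in them by construction and the listed start is not marked. Nor is it marked which of them are among the 13 at an annotated start codon. The following 8 sites are shown for the bases around the core, each in RefSeq sequence, 5′ to 3′, with the YY1 core in capitals.
MRPL20: cgacccgggcAAGATGGCagcggcgctg
MRPL51: ggtaaggcccAAGATGGCtgtcttcgcc
MRPS24: cgcttggcccAAGATGGCggcctccgtg
MRPS7: gtggccagccAAGATGGCtgcccccgca
MRPL50: gatctcatcgAAGATGGCggcgcgatct
MRPS10: cgggaccggcAAGATGGCggcgcggaca
MRPS18A: taggtttttgAAGATGGCggccctcaag
MRPS27: ggtacgctccAAGATGGCtgcctccata
On GRCh38.p14 these sites were MRPL20 at chr1:1407261-1407288 (- strand), MRPL51 at chr12:6493224-6493251 (- strand), MRPS24 at chr7:43869481-43869508 (- strand), MRPS7 at chr17:75261888-75261915 (+ strand), MRPL50 at chr9:101398578-101398605 (- strand), MRPS10 at chr6:42217835-42217862 (- strand), MRPS18A at chr6:43687765-43687792 (- strand) and MRPS27 at chr5:72320207-72320234 (- strand). MRPL20 and MRPL51 are among the 3 most abundant members, and MRPS18A and MRPS10 are among the less abundant ones.

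The ETS core was in 31 of the 81 windows (38.3%), against 10.3% of all windows and 22.7% of windows of genes with a mean of at least 1. Cytosolic ribosomal protein genes held it about as often, in 34.2% of their windows. The NRF-1 core was rarer, in 6 windows (7.41%), against 3.05% of all windows and 6.00% of windows of genes with a mean of at least 1. It was in 16.7% of the windows of nuclear oxidative phosphorylation genes. At least 1 of the 3 cores was in 55.6% of member windows, 14.9% of all windows and 31.8% of windows of genes with a mean of at least 1. The CCAAT box (CCAAT) was in 33.3% of member windows and 34.6% of all windows, and the TATA box (TATAAA) was in 3.70% and 11.5%. The TATA box was in 6.13% of windows of genes with a mean of at least 1. For cytosolic ribosomal protein genes it was in 6.33%, and for nuclear oxidative phosphorylation genes in 7.41%. The stretches below hold the 110 bases before the start of 6 members and are shown for the spacing of the ETS and NRF-1 cores, in capitals.
MRPL20: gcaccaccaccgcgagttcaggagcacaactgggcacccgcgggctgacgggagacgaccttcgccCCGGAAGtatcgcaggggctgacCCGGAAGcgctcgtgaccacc
MRPL3: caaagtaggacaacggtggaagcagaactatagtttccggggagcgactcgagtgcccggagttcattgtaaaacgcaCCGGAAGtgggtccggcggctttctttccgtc
MRPL33: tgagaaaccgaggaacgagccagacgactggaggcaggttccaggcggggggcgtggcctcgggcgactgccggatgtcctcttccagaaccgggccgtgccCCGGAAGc
MRPL22: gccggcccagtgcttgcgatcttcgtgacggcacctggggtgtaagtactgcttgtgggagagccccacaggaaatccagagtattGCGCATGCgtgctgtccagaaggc
MRPS10: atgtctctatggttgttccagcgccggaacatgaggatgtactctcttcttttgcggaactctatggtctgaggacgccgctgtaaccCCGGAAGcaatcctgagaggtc
MRPS18A: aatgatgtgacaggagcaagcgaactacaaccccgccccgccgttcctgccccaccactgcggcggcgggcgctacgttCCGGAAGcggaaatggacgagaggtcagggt
They came from GRCh38.p14, with MRPL20 at chr1:1407294-1407403 (- strand), MRPL3 at chr3:131502972-131503081 (- strand), MRPL33 at chr2:27771609-27771718 (+ strand), MRPL22 at chr5:154940963-154941072 (+ strand), MRPS10 at chr6:42217862-42217971 (- strand) and MRPS18A at chr6:43687792-43687901 (- strand). Within these stretches MRPL20 held 2 ETS cores, MRPL22 held the NRF-1 core near its start, and the other 4 members held 1 ETS core each. Members with the YY1 core had a median mean of 3.18 UMIs per cell and members without it 3.10. For the ETS core the medians were 3.33 and 2.62. A match describes the letters only, since no binding was measured.

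**Figure D1:**
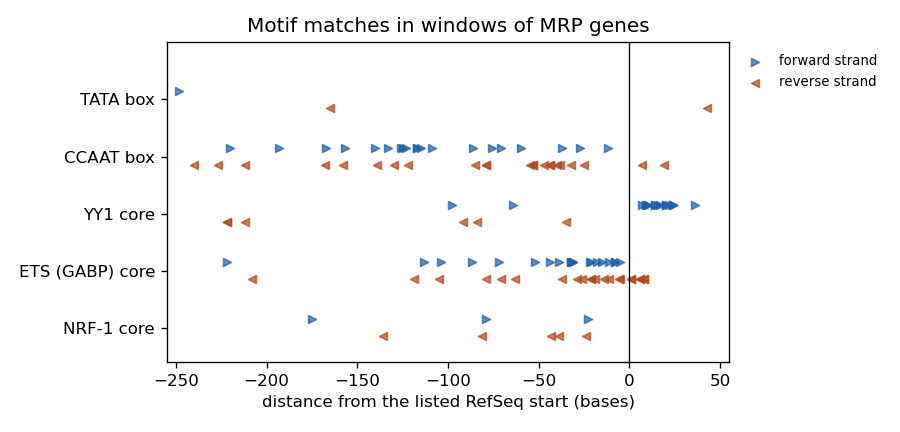
Matches to 5 motifs in the 81 RefSeq windows of MRP genes, by the distance of the leftmost matched base from the listed start (horizontal axis, in bases) and by strand (triangles). Of the 23 windows with a YY1 core, 16 have it just after the start on the forward strand, while ETS cores lie mostly in the bases before the start.

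The cells yielded between 7305 and 43392 UMIs in gene rows, with a median of 20966, and 5 cells lay below 10483, the median divided by 2. Spike-in UMIs ranged from 1390 to 3132 per cell. All 6 HEK293 markers on the list (UCHL1, VIM, NEFM, KRT18, NEFL and KRT8) had UMIs, 1053 in sum. A UMI was seen for 96.6% of all gene rows, so this alone does not mark the line. The markers were seen in 70 cells (UCHL1 and VIM), 49 (NEFM), 45 (KRT18), 26 (NEFL) and 19 (KRT8). Of 8 markers of blood, fibroblast, muscle and liver cells, 5 were in the table, and they had 22 UMIs over all cells. No pair of cells held identical counts.

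MRP rows took 22133 UMIs in the 76 cells, with a Poisson 95% interval of 21842.4 to 22426.5. A cell held between 104 and 608 MRP UMIs, with a median of 273. As a share of a cell's UMIs the MRP genes took 1.31% ± 0.143 (SD, n = 76 cells), from 0.938% to 1.72%. The share of the cytosolic ribosomal protein genes, 82 in number, was 29.2% ± 3.17. In a cell the cytosolic class thus had 22.6 ± 3.15 times as many UMIs as the MRP class, and the ratio ranged from 15.4 to 32.9. Because a molecule is counted once at its 5′ end, gene levels were not divided by transcript length. The median gene of the cytosolic class had a mean of 79.9 UMIs per cell and the median ribosomal MRP gene 3.13.

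Most members stood well above the typical gene of the table and far below cytosolic ribosomal protein genes. Of the 80 rows, 72 averaged at least 1 UMI per cell, as did 2810 of all 17513 rows (16.1%), and the median row of the table averaged 0.132. A UMI was seen for 79 member rows, where 96.6% of all rows had one. Means of at least 10 were reached by 3 members, 37 lay between 3 and 10, 32 between 1 and 3, and 8 below 1. A cell showed between 42 and 74 members, with a median of 63.5. MRPS21, MRPL51, MRPS18C, MRPL23 and MRPL21 had a UMI in each of the 76 cells, and 72 members had one in at least 38 cells, as did 16.7% of all rows.

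**Figure D2:**
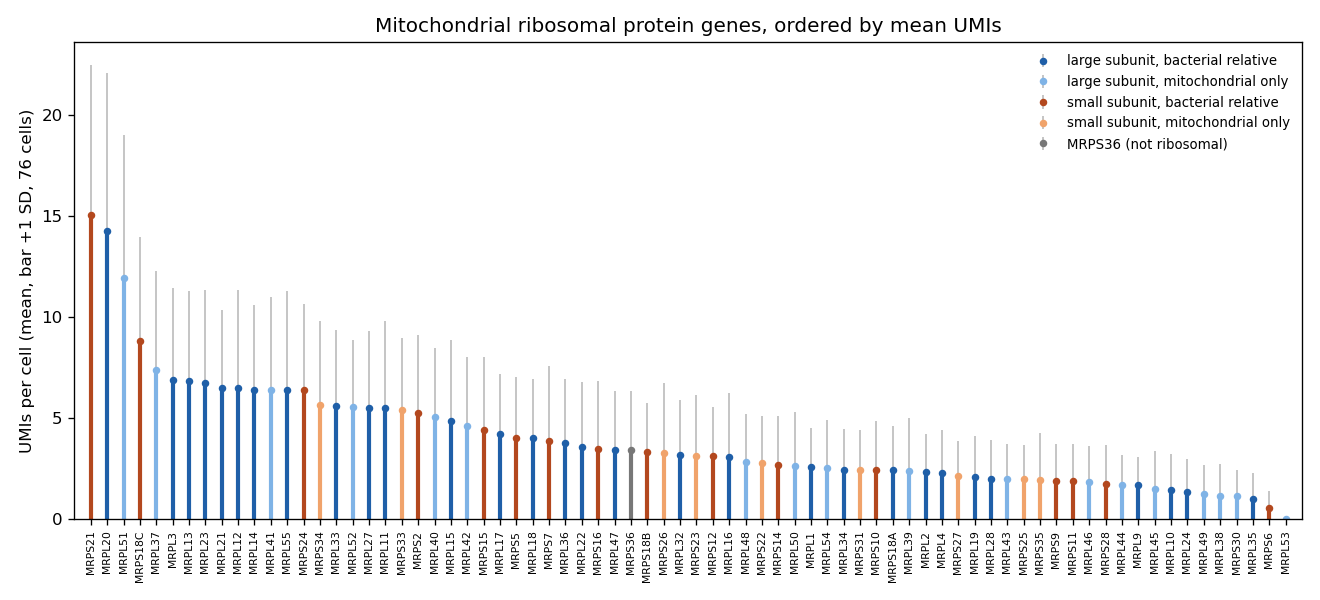
Mean UMIs per cell (vertical axis) of the 73 ribosomal members and MRPS36, ordered by mean and coloured by subunit and by whether the protein has a bacterial relative. Grey bars add 1 SD over 76 cells. MRPS21 (15.0), MRPL20 (14.3) and MRPL51 (11.9) stand above the rest, and all 4 ribosomal classes are spread along the range.

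The large-subunit genes with bacterial relatives, 30 in the table, took 0.578% ± 0.0834 of a cell's UMIs (SD, n = 76 cells). MRPL20, the relative of bacterial L20, led them with 0 to 41 UMIs per cell, a median of 13 and a mean of 14.3 ± 7.85. MRPL3, relative of L3 near the peptidyl transferase centre, ranged from 0 to 22 with a median of 5. MRPL13 had a median of 6 UMIs and a highest value of 25. These 2 genes had means of 6.87 ± 4.58 and 6.83 ± 4.47, and the Poisson 95% intervals of their summed UMIs overlapped.

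MRPL23, a protein of the peptide exit region, had 1 to 22 UMIs and a mean of 6.74 ± 4.58. MRPL21 had 1 to 19 UMIs and a mean of 6.47 ± 3.88. MRPL12, a stalk protein also reported to bind the mitochondrial RNA polymerase, had a similar mean of 6.46 ± 4.89 and a wider range of 0 to 26. The 3 means, and those of MRPL14 (6.39 ± 4.20) and MRPL55 (6.37 ± 4.92), differed by less than their spread over cells. The Poisson 95% intervals of their summed UMIs overlapped. MRPL35 was lowest in this class, at 1.00 ± 1.30 and seen in 41 cells.

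The large-subunit genes found only in mitochondria, 18 in the table, took 0.278% ± 0.0522. MRPL51 had 1 to 31 UMIs per cell, a median of 11 and a mean of 11.9 ± 7.06. MRPL37 followed with 0 to 26, a median of 6 and a mean of 7.38 ± 4.91, and MRPL41 with 0 to 23, a median of 5.5 and a mean of 6.37 ± 4.60. At the other end MRPL53 had 1 UMI in 1 cell. MRPS30 averaged 1.12 ± 1.29 and was seen in 45 cells.

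The small-subunit genes with bacterial relatives, 16 in the table, took 0.310% ± 0.0636. MRPS21, relative of bacterial S21, was the most abundant member of all, with 1 to 32 UMIs per cell, a median of 14 and a mean of 15.0 ± 7.44. MRPS24, the relative of S3, had a mean of 6.37 ± 4.26, equal to those of MRPL41 and MRPL55. MRPS6 was lowest, with 0 to 3 UMIs, a mean of 0.539 ± 0.824 and a UMI in 28 cells.

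Humans have 3 relatives of bacterial S18, and they differed in level. MRPS18C had 1 to 27 UMIs and a mean of 8.82 ± 5.17. MRPS18B, also a small-subunit protein, had 0 to 11 and a mean of 3.29 ± 2.48. MRPS18A, the large-subunit one, had 0 to 10 and a mean of 2.41 ± 2.21. Ranges of the 3 overlapped, and the gap between MRPS18B and MRPS18A was smaller than the SD of either over cells. That SD is not the precision of a mean. Summed over cells, MRPS18B had 250 UMIs (Poisson 95% interval 220 to 283) and MRPS18A 183 (157.4 to 211.5). These intervals, which cover counting error only, did not overlap.

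The small-subunit genes found only in mitochondria, 9 in the table, took 0.126% ± 0.0285, led by MRPS34 (5.62 ± 4.19 UMIs) and MRPS33 (5.38 ± 3.58). MRPS36 had 0 to 13 UMIs and a mean of 3.39 ± 2.96. The pseudogene rows held 30 UMIs in sum, 0.136% of the MRP total, with 17 of their UMIs in MRPL45P2. MRPS17P1 was at 0 of 76 cells. This allows a share of cells with a UMI of up to 3.95% by a limit of 3 counts, or 4.74% by the exact 95% interval. How the authors' counting treated reads shared by a gene and a pseudogene copy, or by overlapping genes, is not given in the sources used here, so members with copies are uncertain to that extent. MRPL30, MRPL57 under that symbol, and MRPS17 were not analysed here.

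Levels were uneven although the proteins enter the ribosome together. The top 3 members held 14.2% of MRP UMIs and the top 12 held 35.6%. Across 71 members with a mean of at least 1 and a transcript length, mean level and the length of the longest coding transcript had a Spearman rho of -0.33 across genes, which are not independent. The 2 subunits had almost the same median gene mean, 3.125 UMIs for the large and 3.13 for the small.

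Large-subunit genes together took 0.856% ± 0.101 of a cell's UMIs and small-subunit genes 0.435% ± 0.0696. The ratio of large to small was 2.01 ± 0.359 over cells, from 1.21 to 3.52. The 2 shares had a Spearman rho of 0.33 over the 76 cells, and a Pearson r of 0.342. Without the 2 cells farthest from the median MRP share the rho was 0.28 and r was 0.244. The cells share 1 run, and both shares have the same total as their denominator.

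**Figure D3:**
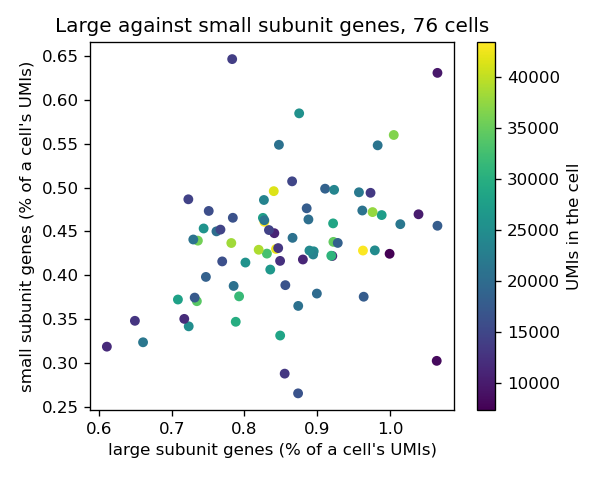
Share of a cell's UMIs in large-subunit genes (horizontal axis, percent) against small-subunit genes (vertical axis, percent), 1 point a cell, coloured by the cell's UMIs. The points form a broad cloud with a rho of 0.33 in which the large-subunit share averages 0.856% and the small-subunit share 0.435%.

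The MRP share was among the steadier ones. Its coefficient of variation over cells was 10.9%, close to 10.8% for cytosolic ribosomal protein genes and 11.3% for 72 nuclear oxidative phosphorylation genes. Shares of the 13 mitochondrially encoded mRNAs and the 2 mitochondrially encoded rRNAs had 42.9% and 41.5%. Part of any such value is counting error, so the squared coefficient of variation beyond Poisson was also computed. It was 0.00676 for the MRP sum. Among the 8 spike-ins averaging 80 UMIs or more, 1 was higher, at 0.00806, and the 6 averaging 190 or more, nearest the MRP sum in level, reached at most 0.00352. The Pearson dispersion of the MRP sum, which is 1 under Poisson counting at a cell's depth, was 3.09 and lay above the highest of these 8 spike-ins (1.80). By these values the MRP sum varied more over cells than most spike-ins of like level, but the 2 were scaled differently. Spike-ins were scaled by spike-in totals, which the abundant spike-ins themselves make up in part, and this holds their values down. ERCC-00074 alone averaged 559.8 UMIs, beside a median spike-in total of 2198.5. The MRP sum was scaled by gene totals, so the size of the difference is uncertain. The squared coefficient of variation beyond Poisson was 0.00954 for cytosolic ribosomal protein mRNA, 0.137 for mitochondrial mRNA and 0.155 for mitochondrial rRNA.

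For single members, Pearson dispersion had a median of 1.71 over the 72 members with a mean of at least 1 and 1.76 over all 2810 such genes. The highest dispersion of a spike-in was 2.20. It was exceeded by 10 members (13.9%), against a background of 21.6% of all genes tested. In cells thinned to 10940 UMIs, 0 of 54 members tested exceeded the highest spike-in there (2.30), beside 7.89% of all genes. Only gene counts were thinned, while spike-ins kept their full depth. Pearson dispersion falls toward 1 with fewer counts, so the drop to 0 members does not show less variation. At full depth, MRPL12 (2.94), MRPL50 (2.64), MRPL55 (2.60), MRPL41 (2.59) and MRPS18C (2.44) were highest.

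**Figure D4:**
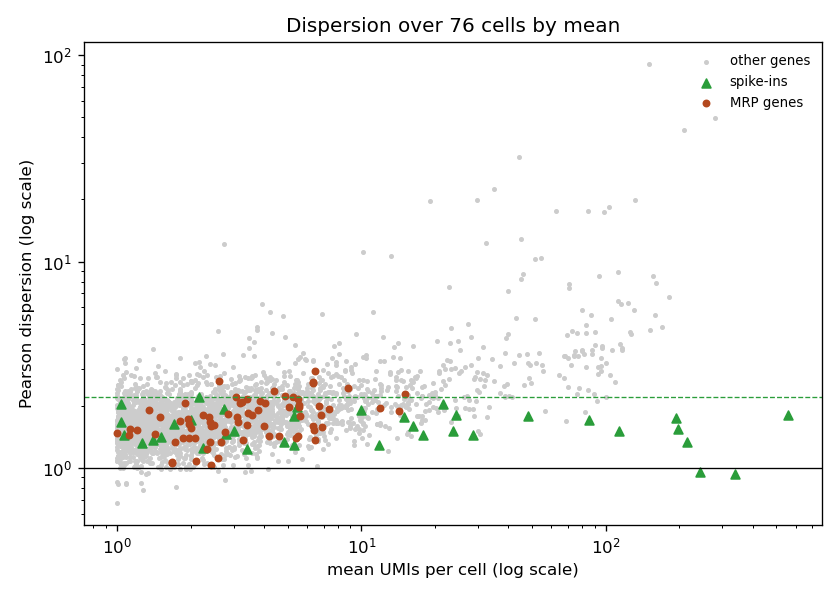
Pearson dispersion over 76 cells (vertical axis, log scale) against mean UMIs per cell (horizontal axis, log scale) for 72 MRP genes, the other genes with a mean of at least 1 and spike-ins. The solid line is 1 and the dashed line is the highest spike-in, 2.20, with 10 MRP genes above it.

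Pair by pair, members were hardly related to one another over cells. Over 2556 pairs of members the median Spearman rho was 0.01, with 54.3% of pairs above 0. Over all pairs of the 2810 genes the median was 0.01 and 54.5% were above 0. Against the summed share of the other members, 51 of 72 members had a positive rho (70.8%), where 53.7% of all genes had a positive rho to the MRP sum. The medians were 0.04 and 0.01, and in counts this sparse such values are no finding. MRPL41 had the highest, at 0.39.

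The MRP share was set against RNA made in the mitochondrion itself. Mitochondrially encoded mRNA took 3.58% ± 1.54 of a cell's UMIs and mitochondrially encoded rRNA 2.15% ± 0.894. The cDNA was primed with oligo-dT, so rRNA UMIs count only molecules caught by that primer and are no measure of rRNA content. The rho of the MRP share was -0.26 with the mRNA share and -0.41 with the rRNA share (n = 76 cells, Pearson r of -0.310 and -0.442). Leaving out the 2 cells farthest from the median MRP share gave a rho of -0.23 and -0.36, and r of -0.286 and -0.338. The mRNA and rRNA shares had a rho of 0.50 with each other.

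These signs depended on the scale. Shares of 1 total compete, and with UMIs counted per spike-in UMI of the cell the 2 values became 0.53 and 0.51. On that scale larger libraries are higher in each class and nearly all genes are positive with the MRP sum, and MRP UMIs followed a cell's total UMIs with a rho of 0.97. With cytosolic ribosomal protein and mitochondrially encoded genes left out of the denominator the values were -0.04 and -0.25. The negative value with mitochondrial mRNA was thus close to 0 on this last scale. The MRP share had a rho of -0.03 with total UMIs and -0.19 with spike-in UMIs.

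**Figure D5:**
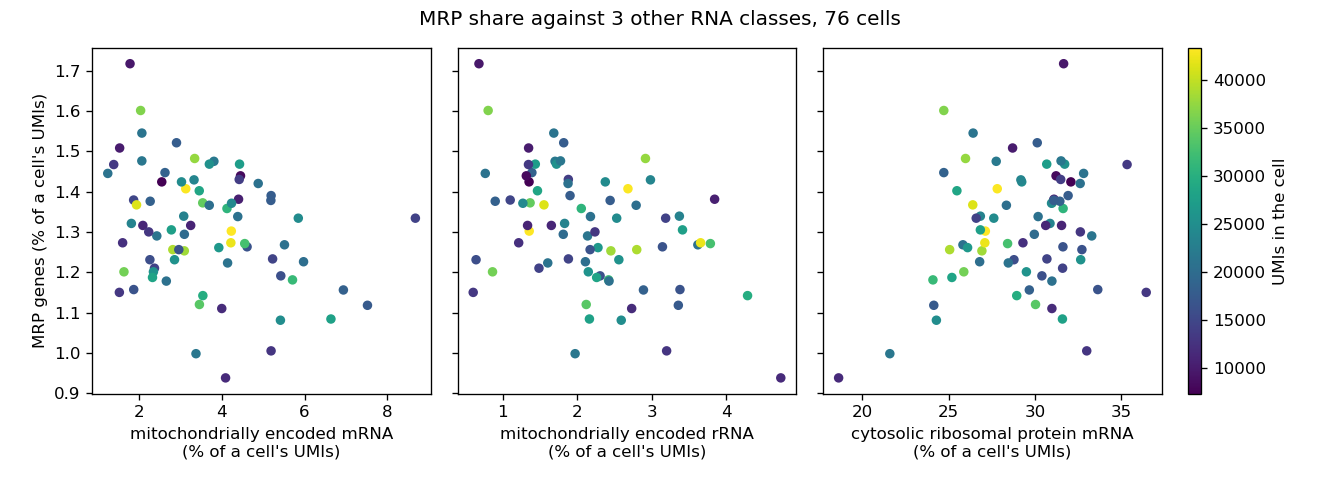
MRP share (vertical axis, percent of a cell's UMIs) against the share of mitochondrially encoded mRNA, mitochondrially encoded rRNA and cytosolic ribosomal protein mRNA (horizontal axes, percent), 1 point a cell, coloured by the cell's UMIs. The rho values are -0.26, -0.41 and 0.14, and the cell of lowest MRP share (0.938%) has the highest rRNA share (4.73%).

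By gene, 29 of 72 members (40.3%) had a positive rho with the mitochondrial mRNA share, beside a background of 43.8% of all genes. With the mitochondrial rRNA share 26 members (36.1%) had one, beside 48.9%. The median rho of members was -0.03 and -0.02, near the -0.03 and 0.00 of all genes. MRPL50 (0.38), MRPL44 (0.30), MRPS36 (0.29), MRPS14 (0.28) and MRPL39 (0.26) were at the high end for mitochondrial mRNA. MRPL28 (-0.32), MRPL20 (-0.28), MRPL41 (-0.26), MRPS27 (-0.25) and MRPL12 (-0.23) were at the low end. Per spike-in UMI, 70 members (97.2%) were positive with either class, but so were 94.5% of all genes for mRNA and 97.2% for rRNA.

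As shares of a cell's UMIs, cytosolic and mitochondrial ribosomal protein genes were only weakly related, and the value depended on the scale. The rho of their shares was 0.14 (Pearson r of 0.212, and 0.0819 without the 2 farthest cells). The cytosolic share fell as the share of long transcripts rose, with a rho of -0.79, where long means a longest coding transcript of at least 3000 bases. The MRP share had -0.21 with it. With the share of long transcripts held fixed, the relation of the 2 ribosomal protein classes was -0.05. With both classes left out of the denominator it was 0.43, and per spike-in UMI it was 0.91.

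By gene, 29 of 72 members (40.3%) had a positive rho with the cytosolic ribosomal protein share, beside a background of 32.6% of all genes, and the medians were -0.04 and -0.08. MRPL20 (0.34), MRPS18C (0.25), MRPL9 (0.22), MRPL52 (0.21) and MRPS24 (0.20) were highest. MRPL34 (-0.40), MRPL1 (-0.36), MRPL16 (-0.32), MRPS36 (-0.23) and MRPS7 (-0.23) were lowest. They are single values over 76 cells, given as a description. MRPL20 and MRPS18C are among the 4 most abundant members, while MRPL34, MRPL1 and MRPL9 average under 3 UMIs.

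Other genes of mitochondrial translation were set beside the MRP genes from lists by function. Ribosomal proteins and factors of other names, 7 in number, had means from 0.961 to 5.87 UMIs, led by GADD45GIP1 and MRP63 (the older symbol of MRPL57, 3.76 ± 3.16). Of 16 translation factors and mRNA-binding proteins, 9 had a mean of at least 1, where 16.05% of all gene rows did. SLIRP, which stabilises mitochondrial mRNA, had 16.8 ± 7.87 UMIs and the elongation factor TUFM 5.32 ± 3.96. Of 17 mitochondrial tRNA synthetases, only IARS2 reached a mean of 1, at 1.93 ± 2.31. Of 20 assembly genes, 8 did, led by MALSU1 (2.07 ± 2.08) and TFB1M (2.00 ± 1.93). Of 16 genes for replication and expression of mitochondrial DNA, RNA processing included, 8 did. The single-strand binding protein SSBP1 (20.6 ± 9.55) and TRMT10C (6.78 ± 4.80) led them, while the RNA polymerase POLRMT had 0.513 ± 0.959.

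The nuclear oxidative phosphorylation genes, most of which encode partners of the proteins made on these ribosomes, took 4.20% ± 0.475 of UMIs. Their share had a rho of 0.28 with the MRP share, 0.43 without cytosolic ribosomal protein and mitochondrially encoded genes in the denominator and 0.92 per spike-in UMI. It was lower, at 0.19, with the share of long transcripts held fixed and at 0.24 in thinned cells. Mitochondrial import genes had a rho of 0.20 with the MRP share and translation factors 0.17. For S phase and G2/M genes it was -0.08 and -0.12.

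Among the 1056 genes outside the class with a mean of at least 3 UMIs, the share of HMGN2, a nucleosome-binding protein, was most like the MRP share, with a rho of 0.43 over 76 cells. BCKDK, a mitochondrial kinase, followed at 0.41, then POLR2L and NOL7 at 0.38, HIGD1A, FTH1, ACTG1 and C11orf83 at 0.37 and UXT and PHB at 0.36. The lowest were HELLS (-0.51), XIST (-0.43), MT-RNR2 (-0.41), PRKDC (-0.37) and TMA16 (-0.37). With cytosolic ribosomal protein and mitochondrially encoded genes left out of the denominator, the 5 stayed negative, HELLS at -0.53, XIST at -0.44, PRKDC at -0.43, TMA16 at -0.29 and MT-RNR2 at -0.27. The genes named at the high end stayed positive, but their order changed. POLR2L was then highest of them at 0.39, while HMGN2 and NOL7 fell to 0.28 and were the lowest of them. Per spike-in UMI the 15 genes were positive, as were 99.7% of all genes with a mean of at least 1, so that scale does not set them apart.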

How the data were processed

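The authors deposited 1 table of raw UMI counts, with genes in rows and cells in columns. STAR 2.4.0a, cutadapt 1.2.1 and hg19 (GRCh37) stand in the submitters' processing notes. Which program counted UMIs, with which annotation, strand setting and cell filter, is not given in the sources used here. A row named GENE, 0.197% of all values, was left out, as were 80 spike-in rows from totals. Totals of 7305 to 43392 UMIs per cell leave most single members governed by counting error, which is all that the intervals cover. Shares are percent of a cell's gene UMIs. Spearman rho, Pearson dispersion (spike-ins scaled by spike-in totals) and excess squared variation were computed over 76 cells in Python 3.11.15 with numpy 2.4.6, scipy 1.17.1 and pandas 2.3.3, and the code was tested on simulated data. Cells are not replicates, so no test was made. A longest coding transcript (GENCODE release 29) was known for 90.9% of genes with a mean of at least 1. Motifs were searched in every RefSeq window listed for a gene. Symbols are those of the table. MRPL10, MRPL13, MRPL15, MRPL2, MRPL21, MRPL23, MRPL35 and MRPS28 had no window.

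Members named singly were the 12 of highest mean, the 5 highest and 5 lowest in rho with mitochondrial mRNA and cytosolic ribosomal protein shares, the 5 of highest dispersion, the MRPS18 relatives and those seen in no cell. The lowest member of a class, leading members of the mitochondria-only small-subunit class and MRPL41's rho with the other members were named after their values were seen. Alternatives covered the scale, depth, cells, filter, statistic and covariates. The members and lists were chosen with earlier results of these data known.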

Additional observations from a re-analysis of the deposited data

How the results depend on the processing

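Of 96 alternative values for 13 results, 75 stayed within wide limits (for a rho 0.1, for a count 1.5 times), 18 moved and 3 changed sign. Those limits let pass a rise from 51 to 72 members positive with the rest of the MRP sum per spike-in UMI, where 99.7% of all genes were, and a shift for mitochondrial mRNA from 40.3% of members beside 43.8% of genes to 51.4% beside 47.7% with the reduced denominator. Per spike-in UMI, the rho of the MRP sum turned to 0.53 with mitochondrial mRNA and 0.51 with mitochondrial rRNA, and rose to 0.91 with cytosolic ribosomal protein genes, 0.92 with oxidative phosphorylation genes and 0.89 between the subunits. On that scale 70, 70 and 72 members were positive with mitochondrial mRNA, mitochondrial rRNA and cytosolic ribosomal protein genes, beside 94.5%, 97.2% and 99.4% of all genes. Library size enters both sides there. With cytosolic ribosomal protein and mitochondrially encoded genes out of the denominator, the values were -0.038, -0.25, 0.37 and 0.43 in the same order of classes, and the MRP share was 2.03% by construction. With only the 2 classes compared left out, an alternative chosen after seeing the data, rho was -0.13 for mitochondrial mRNA, -0.35 for mitochondrial rRNA and 0.43 for cytosolic ribosomal protein genes. The mitochondrial rRNA alternatives for member counts and Pearson r without 2 cells were also chosen after seeing the data. Holding the share of long transcripts fixed gave -0.047 with cytosolic ribosomal protein genes. The cause was not tested. Thinned cells gave -0.26 with mitochondrial rRNA, a dispersion of the MRP sum of 1.84 (3.09 unthinned) and 0 members above the spike-in limit (7.89% of all genes). Only gene counts were thinned, not spike-ins, and Pearson dispersion falls toward 1 with fewer counts, so neither drop shows less variation. Beyond Poisson, the squared coefficient of variation of the MRP sum was 0.00600 thinned and 0.00676 unthinned. The count above the spike-in limit was 6 without the 5 shallowest cells (8.33% beside 17.9% of all genes) and 17 with the second highest spike-in as the limit (23.6% beside 29.9%). With genes and spike-ins both held to a mean of at least 3, the limit fell to 2.04 and 15 of 40 members passed it (37.5% beside 49.9%), while at the unchanged limit, also added after seeing the data, 9 did (22.5% beside 39.1%). No paired analysis was possible because there is 1 group and no test. Levels under 1 UMI per cell are at the limit of this depth.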

Other observations

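Cells at the ends of the MRP range differed in other RNA classes. The cell of lowest MRP share held 109 MRP UMIs of 11620, with 4.73% mitochondrial rRNA and 18.6% cytosolic ribosomal protein mRNA. The cell next to it, at 0.998%, held 1.97% mitochondrial rRNA and 21.6% cytosolic ribosomal protein mRNA. The cell of highest MRP share held 166 MRP UMIs of 9668, with 0.683% mitochondrial rRNA and 31.7% cytosolic ribosomal protein mRNA. The second highest, at 1.60%, had 586 MRP UMIs of 36606, with 0.806% mitochondrial rRNA and 24.7% cytosolic ribosomal protein mRNA. The most mitochondrial mRNA in a cell was 8.68%, at an MRP share of 1.33%, and the least was 1.24%, at 1.44%. The most closely related pair of members was MRPS21 and MRPS9, with a rho of 0.37. Of 65 members with a RefSeq window, 23 held none of the YY1, ETS and NRF-1 cores. No background by gene was computed for this count. By window, 55.6% of member windows held at least 1 of these cores. The share was 14.9% of all windows and 31.8% of windows of genes with a mean of at least 1.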
